A study of Mus musculus with 13 samples.

Results

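Oligodendrocyte precursor cells change the level of many genes when they become immature oligodendrocytes, and the question here was which of those changes differ when Eed has been deleted. The measure was the difference between 2 differentiation responses. Each response is the log2 fold change of a gene over differentiation, immature oligodendrocytes (iOLs) over precursors (OPCs), and the response of control cultures was subtracted from that of Eed cKO cultures. All 9 RNA sequencing libraries of the series' 13 samples entered 1 fit of 4 group means with edgeR's quasi-likelihood test. Of 13549 genes tested, 248 had responses that differed between the genotypes at an adjusted p under 0.05, which is 1.83% of them. The response was higher in cKO for 128 genes (0.945%) and lower for 120 (0.886%).

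Eed encodes a core part of PRC2, the Polycomb complex that methylates lysine 27 of histone H3 and keeps developmental genes repressed. Differentiating oligodendrocytes leave the cell cycle, switch off precursor genes such as the PDGF receptor gene Pdgfra and switch on genes of process outgrowth, lipid synthesis and myelin, under transcription factors such as Myrf and Sox10. Thyroid hormone is the usual trigger of this step in culture.

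The cells came from brains of C57BL/6 mice that carried the Eed conditional deletion (cKO) or were controls. The groups were cKO iOLs (2 libraries), cKO OPCs (3), control iOLs (2) and control OPCs (2). Genotypes were read from the sample titles, because the genotype entry of the labels is the same for every library. OPCs were kept in Sato medium with PDGF and NT-3, and iOLs had spent 2 days with T3, the active thyroid hormone, and without PDGF. The Cre driver of the deletion, the deleted exons, and whether replicates were separate animals or cultures are not stated in the labels, so p-values measure the spread between these libraries. OPC control replicate 1 and OPC cKO replicates 1 and 2 are labelled postnatal day 7 and the other 6 libraries day 6.

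Total counts ran between 17417529 and 19680398 per library. Eed itself had 14.6 and 12.1 CPM in cKO iOLs, 13.3, 11.8 and 12.5 CPM in cKO OPCs, 18.003 and 21.2 CPM in control iOLs and 21.7 and 16.8 CPM in control OPCs (CPM, counts scaled to library depth). At each stage the cKO libraries lay below the controls, where 67.9% of all genes had no overlap between genotypes in iOLs and 34.3% in OPCs. The genotype difference of Eed passed at neither stage. It was −0.55 ± 0.18 in iOLs (edgeR adjusted p = 0.0973) and −0.62 ± 0.17 in OPCs (edgeR adjusted p = 0.0847) on the log2 scale. The response of Eed did not differ detectably, at 0.07 ± 0.25 (edgeR adjusted p = 0.901). OPC control replicate 1 stood apart from the other 4 OPC libraries, with 2877 CPM of Hbb-b1, a globin gene, against 562 to 1044 CPM. It also had 5379.9 CPM of Lars2, against 142 to 381 CPM in the other 8 libraries, 4456 CPM of Mir6236, against 51.0 to 172 CPM, and the highest Mbp level. Markers of astrocytes were present in every culture. Summed over the 26 measured of 27, they reached 16778 and 18741 CPM in cKO iOLs, 9786, 10129.5 and 21346 CPM in cKO OPCs, 11922 and 12028 CPM in control iOLs and 14091 and 26306 CPM in control OPCs, with Gfap, a defining astrocyte gene, at 6115 and 7938 CPM in cKO iOLs, 188, 187 and 500.5 CPM in cKO OPCs, 3778 and 3655 CPM in control iOLs and 439 and 991 CPM in control OPCs. Of other cell types, 4 of 20 microglial, 6 of 15 endothelial, 14 of 22 pericyte and meningeal, 15 of 17 Schwann and neural crest, 7 of 12 ependymal, 31 of 35 neuronal and 1 of 9 red blood cell markers were in the table. The table holds only genes with at least 1 count in every library, so no measured marker was at 0. The precursor genes summed to 11469.7 and 11487 CPM in cKO iOLs, 27809.9, 28930.2 and 26633 CPM in cKO OPCs, 12816 and 11871 CPM in control iOLs and 22404 and 27052 CPM in control OPCs, so in both genotypes iOLs held less of them than OPCs. Among control libraries, the iOLs had 226 and 219 CPM of Enpp6, a marker of newly formed oligodendrocytes, and the OPCs had 35.3 and 17.8. Enpp6 was picked out after its values were seen and its cKO levels are not given. It therefore speaks for the iOL label in controls alone. The 21 measured committed precursor and newly formed oligodendrocyte genes had a median response of 0.05 in cKO and 1.01 in controls. Mbp, a marker of mature cells, did not separate the control stages. In bulk RNA, fewer cells of a type and less RNA per cell cannot be told apart.

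Across all genes both genotypes changed in much the same way, and the cKO response was more often the smaller one. The responses of the genotypes share no library, and their Pearson r across the 13549 genes was 0.823, where genes are not independent replicates. The SD of the responses was 0.941 in cKO and 1.07 in controls on the log2 scale. The response passed the test for 5461 genes in cKO cultures (40.3%) and for 6270 in controls (46.3%), of which 4034 passed in both with the same sign. The cKO response was the smaller for 2753 of those 4034 (68.2%), made up of 1124 of 1750 rises (64.2%) and 1629 of 2284 falls (71.3%). The median difference between the responses over all genes was 0.07.

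**Figure D1:**
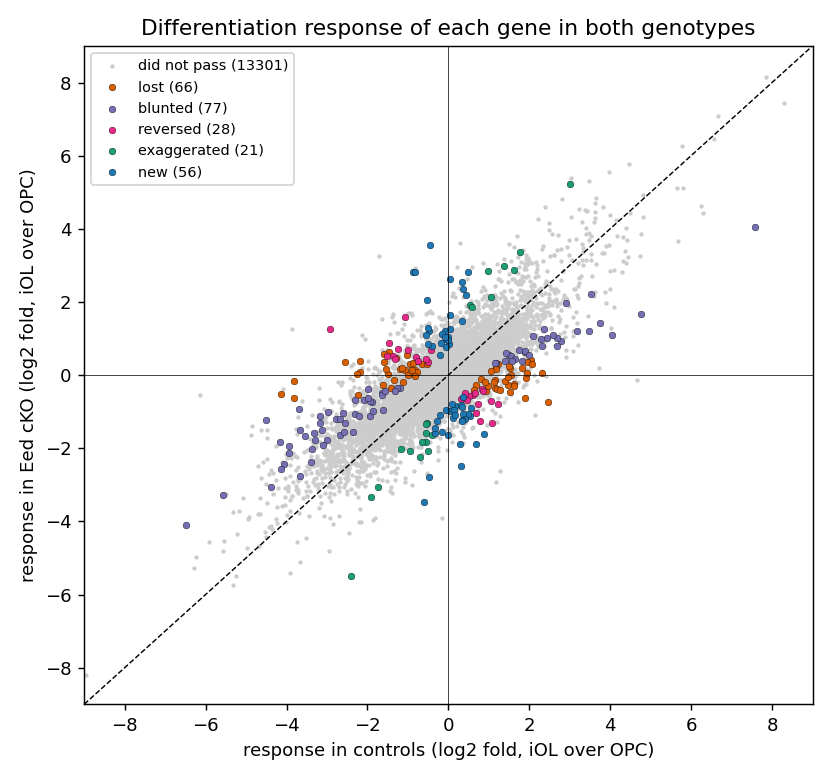
Response of each gene in Eed cKO cultures (vertical axis) against its response in controls (horizontal axis), both as log2 fold changes of iOL over OPC; the dashed line marks equal responses. Grey points are the 13301 genes that did not pass the test of the difference, 1 of which lies outside the axes, and coloured points are the 248 genes that did, by class; blunted genes lie between the dashed line and the horizontal zero line, lost genes near the horizontal zero line on either side of it, and new genes near the vertical zero line.

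The 248 genes were sorted by the tests of the single responses. A response was called lost where it passed in controls and not in cKO, blunted where it passed in both with the same sign and was smaller in cKO, and reversed where it passed in both with opposite signs. It was called exaggerated where it passed in both and was larger in cKO, and new where it passed in cKO alone. By this sorting 66 genes lost their response (33 rises and 33 falls of controls), 77 had it blunted (30 rises and 47 falls) and 28 had it reversed (15 rises and 13 falls). The response was exaggerated for 21 genes (8 rises and 13 falls) and new in cKO for 56 (27 rises and 29 falls). A response that missed the threshold in 1 genotype is not shown to be absent there, and the class counts themselves carry no test. Where the sorting used a response of at least 1 on the log2 scale in place of its test, 89 genes were lost, 45 blunted, 3 reversed, 9 exaggerated and 53 new, and 49 were in no class.

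Most of the 248 genes differed more between the genotypes after differentiation, 208 with the larger genotype difference in iOLs and 40 in OPCs. The same split over all genes is not given, so it is not shown to be particular to the 248. All iOL libraries are labelled day 6, while both OPC groups mix days 6 and 7. All cKO iOL libraries lay above or below all control iOL libraries for 242 of the 248, where 67.9% of all genes did. For the OPC libraries this held for 132 of the 248, where 34.3% of all genes did, and the counts of the 2 stages cannot be set against each other because the groups differ in size. Of all genes, 10.6% passed the genotype test in iOLs (7.08% higher and 3.51% lower in cKO) and 3.25% in OPCs (2.94% higher and 0.303% lower). The 47 blunted falls, the 27 new rises and the 8 exaggerated rises all had the larger difference in iOLs. Blunted rises were divided evenly, 15 with the larger difference in iOLs and 15 in OPCs. Of the 29 new falls, 18 had it in iOLs and 11 in OPCs. The comparisons at the 2 stages enter the difference between the responses by construction, so these counts say where it arose and are not separate evidence for it.

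**Figure D2:**
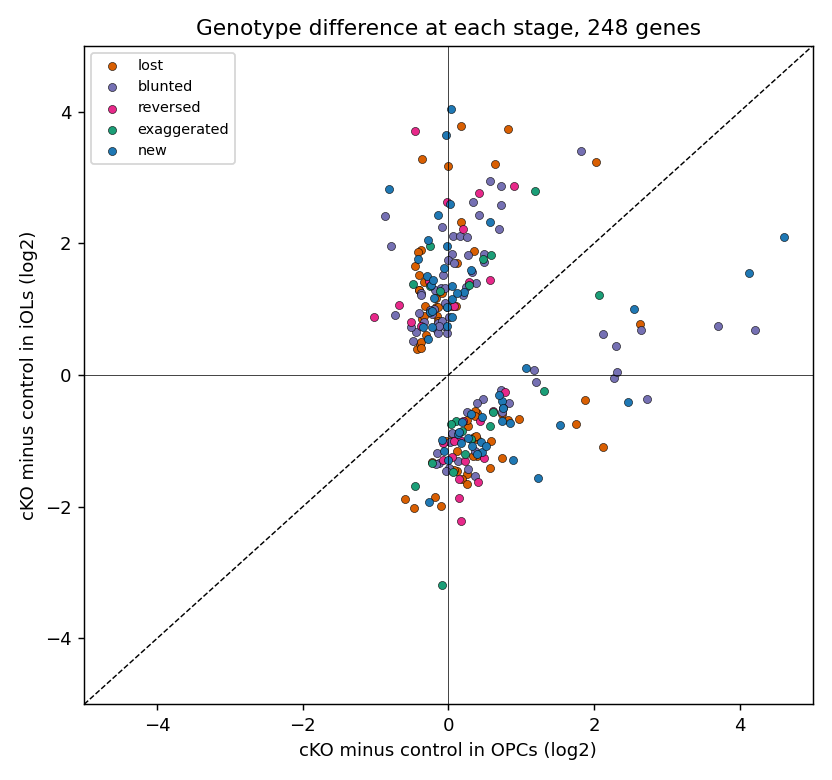
Genotype difference of the 248 genes (log2, cKO minus control) in iOLs (vertical axis) against that in OPCs (horizontal axis), coloured by class; the dashed line marks equal differences. Most genes spread along the vertical axis near an OPC difference of 0, and a smaller group to the right, among them blunted rises and new falls, was already higher in cKO OPCs.

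The calls rested on few libraries and most were close to the threshold. The smallest edgeR adjusted p was 0.00644, for Tle2, a Groucho-type corepressor gene picked out after its values were seen, and 146 of the 248 adjusted p-values lay above 0.03. At an unadjusted p under 0.05 there were 1230 genes with a higher (9.08%) and 1245 with a lower response in cKO (9.19%), 18.3% of all genes together. Each of the 248 kept its direction and an unadjusted p under 0.05 when any 1 library was left out, but few kept the call when the library was one of the iOLs. Of the 248, 13 and 26 kept it without iOL cKO replicates 1 and 2, and 1 and 4 without iOL control replicates 1 and 2. Without OPC cKO replicates 1 and 2, 32 and 26 kept it. All 248 kept it without OPC cKO replicate 3 or OPC control replicate 2, and 205 did without OPC control replicate 1. Between cKO and control OPC libraries, deviations from the group means correlated across genes at 0.31 to 0.43 within a labelled postnatal day and at −0.43 to −0.31 across days, where the 2 control libraries mirror each other by construction. With postnatal day as a term in the edgeR fit 1202 genes passed, 4.99% of all genes higher and 3.88% lower, and DESeq2 called 2.8% higher and 3.52% lower, all 248 among them in both. In what follows, passed without another setting named means the reported edgeR fit. On day 6 each OPC group is a single library, so p-values of that fit take their spread from the iOLs alone. The day 6 libraries are also part of the reported fit, so a shared direction is no separate check. The day 6 libraries alone, in which both stages of both genotypes are present, gave the same direction for all 248, a call for 154 of them, and calls for 2.02% of all genes higher and 1.05% lower, and day 7 holds no iOLs and so gives no value of its own. Of the 65 genes named below that passed, none kept the call without iOL control replicate 1 and 2 did without replicate 2, while 10 and 12 did without iOL cKO replicates 1 and 2, and 48 were called on day 6 alone.

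**Figure D3:**
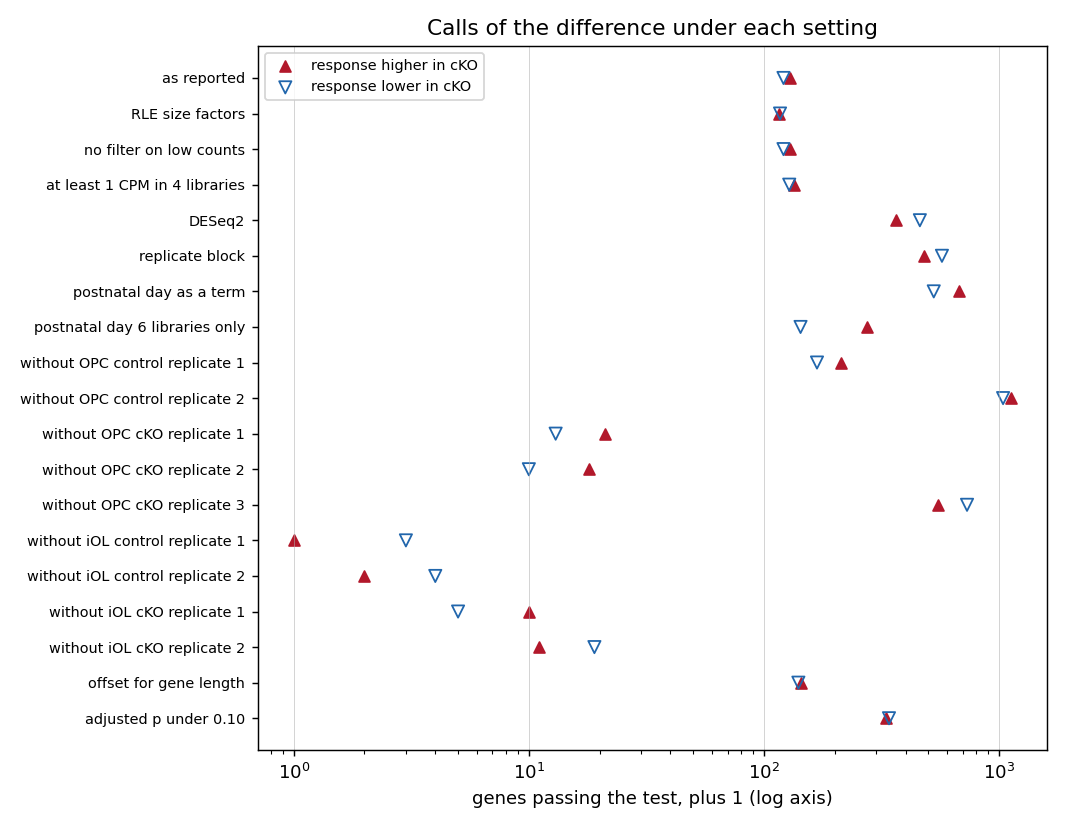
Number of genes plus 1 (horizontal log axis) whose response was higher (filled triangles) or lower (open triangles) in cKO, for the fit as reported and for each other setting or left-out library. The reported 128 and 120 fall to between 0 and 18 when an iOL library is left out and are 1118 and 1038 without OPC control replicate 2.

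Gene length moved with the result. The median length of genes whose response was lower in cKO was 99.6 kb, against 32.9 kb for higher ones and 25.3 kb for all genes with a length. Across genes the Spearman rho of the difference with length was −0.267. For the genotype difference it was 0.386 in OPCs and 0.0276 in iOLs, and OPC control replicate 1 had the lowest rho between level and length of any library, 0.071 against 0.138 to 0.200. In the day 6 libraries alone the rho was 0.0035 and the median length of genes with a lower response was 78.8 kb. With an offset for gene length in the fit, chosen after seeing the data, 210 of the 244 called genes with a length kept their call.

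Among genes that oligodendrocytes switch on as they commit to differentiation, Fyn and Cnksr3 responded less in cKO cultures, and the others did not pass. In a list of 21 committed precursor and newly formed oligodendrocyte genes, 5 rose and 4 fell over differentiation in cKO, against 14 that rose and 1 that fell in controls. By the test of the difference, these 2 of the 21 measured members passed with a lower response and none with a higher one. DESeq2 called 13 lower and none higher, where it called 3.52% of all genes lower. At an unadjusted p under 0.05, 16 of the 21 were lower and none higher, and all 21 differences were below 0, with a median of −0.92 against 0.07 for all genes. The median response of the list was 0.05 in cKO and 1.01 in controls. Its summed level was 4633 and 5825 CPM in cKO iOLs, 5934, 5667 and 5325 CPM in cKO OPCs, 14119.9 and 12992 CPM in control iOLs and 7059.7 and 7114 CPM in control OPCs, so the control iOL libraries alone stood clear of the rest. Without OPC control replicate 1, 6 of the 21 passed with a lower response, beside 1.23% of all genes. Astrocyte markers lay the other way, with 25 of 26 differences above 0 and a median of 0.88, and their part in this was not tested.

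Fyn encodes a Src-family kinase needed for oligodendrocyte process outgrowth and for local translation of Mbp. It had 409 and 474 CPM in cKO iOLs, 584, 597 and 547 CPM in cKO OPCs, 1146 and 1020.5 CPM in control iOLs and 611 and 605 CPM in control OPCs. Control iOLs stood above all other libraries and cKO iOLs below all of them, so the sign of the response turned. The response of Fyn was −0.38 ± 0.13 in cKO and 0.83 ± 0.15 in controls (SE), a difference of −1.22 ± 0.20 (edgeR adjusted p = 0.0255). Cnksr3, a scaffold gene of Ras and sodium channel signalling, had 29.7 and 36.3 CPM in cKO iOLs, 18.6, 17.2 and 13.5 CPM in cKO OPCs, 99.3 and 77.1 CPM in control iOLs and 17.2 and 15.4 CPM in control OPCs. Its OPC groups overlapped, both iOL groups were higher than the OPCs, and the difference was −1.43 ± 0.27 (edgeR adjusted p = 0.0368). Among the transcription factors of the lineage, Zfp488, which promotes oligodendrocyte differentiation together with Olig2, had 57.4 and 74.9 CPM in cKO iOLs, 75.5, 69.8 and 59.5 CPM in cKO OPCs, 187 and 174 CPM in control iOLs and 57.6 and 71.4 CPM in control OPCs. Only the control iOLs were high, and the difference was −1.53 ± 0.23 (edgeR adjusted p = 0.0213). The zinc finger gene Zfp365 followed the same pattern with 38.8 and 50.5 CPM in cKO iOLs, 65.0, 62.6 and 48.9 CPM in cKO OPCs, 156 and 166 CPM in control iOLs and 64.0 and 69.5 CPM in control OPCs, and its difference was −1.67 ± 0.23 (edgeR adjusted p = 0.0156). Without 1 library at a time, the edgeR adjusted p of Fyn, Cnksr3, Zfp488 and Zfp365 lay between 0.00808 and 0.181, and the day 6 libraries alone gave differences between −1.15 and −1.34, with no call for Cnksr3 (edgeR adjusted p = 0.0843) and Zfp488 (edgeR adjusted p = 0.0528).

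Of the 25 measured lineage transcription factors, these 2 passed with a lower response and 1 with a higher one, DESeq2 called 8 lower and 1 higher, and 11 were lower and 2 higher at an unadjusted p under 0.05. Myrf, the regulator that switches on myelin genes, had 105 and 177 CPM in cKO iOLs, 83.1, 87.5 and 49.8 CPM in cKO OPCs, 485 and 469 CPM in control iOLs and 101 and 82.1 CPM in control OPCs. Control iOLs were far above every other library, and the cKO iOLs lay between them and the OPCs. The difference of −1.45 ± 0.40 (edgeR adjusted p = 0.102) missed the threshold. Of 17 other settings, Myrf passed in 4. These were DESeq2 (adjusted p = 0.00762), and in edgeR postnatal day as a term (adjusted p = 0.0236), the replicate number as a block (adjusted p = 0.0350) and OPC cKO replicate 3 left out (adjusted p = 0.0248). The difference was −1.04 in the day 6 libraries alone and between −1.87 and −1.12 in the 9 fits without a library.

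**Figure D4:**
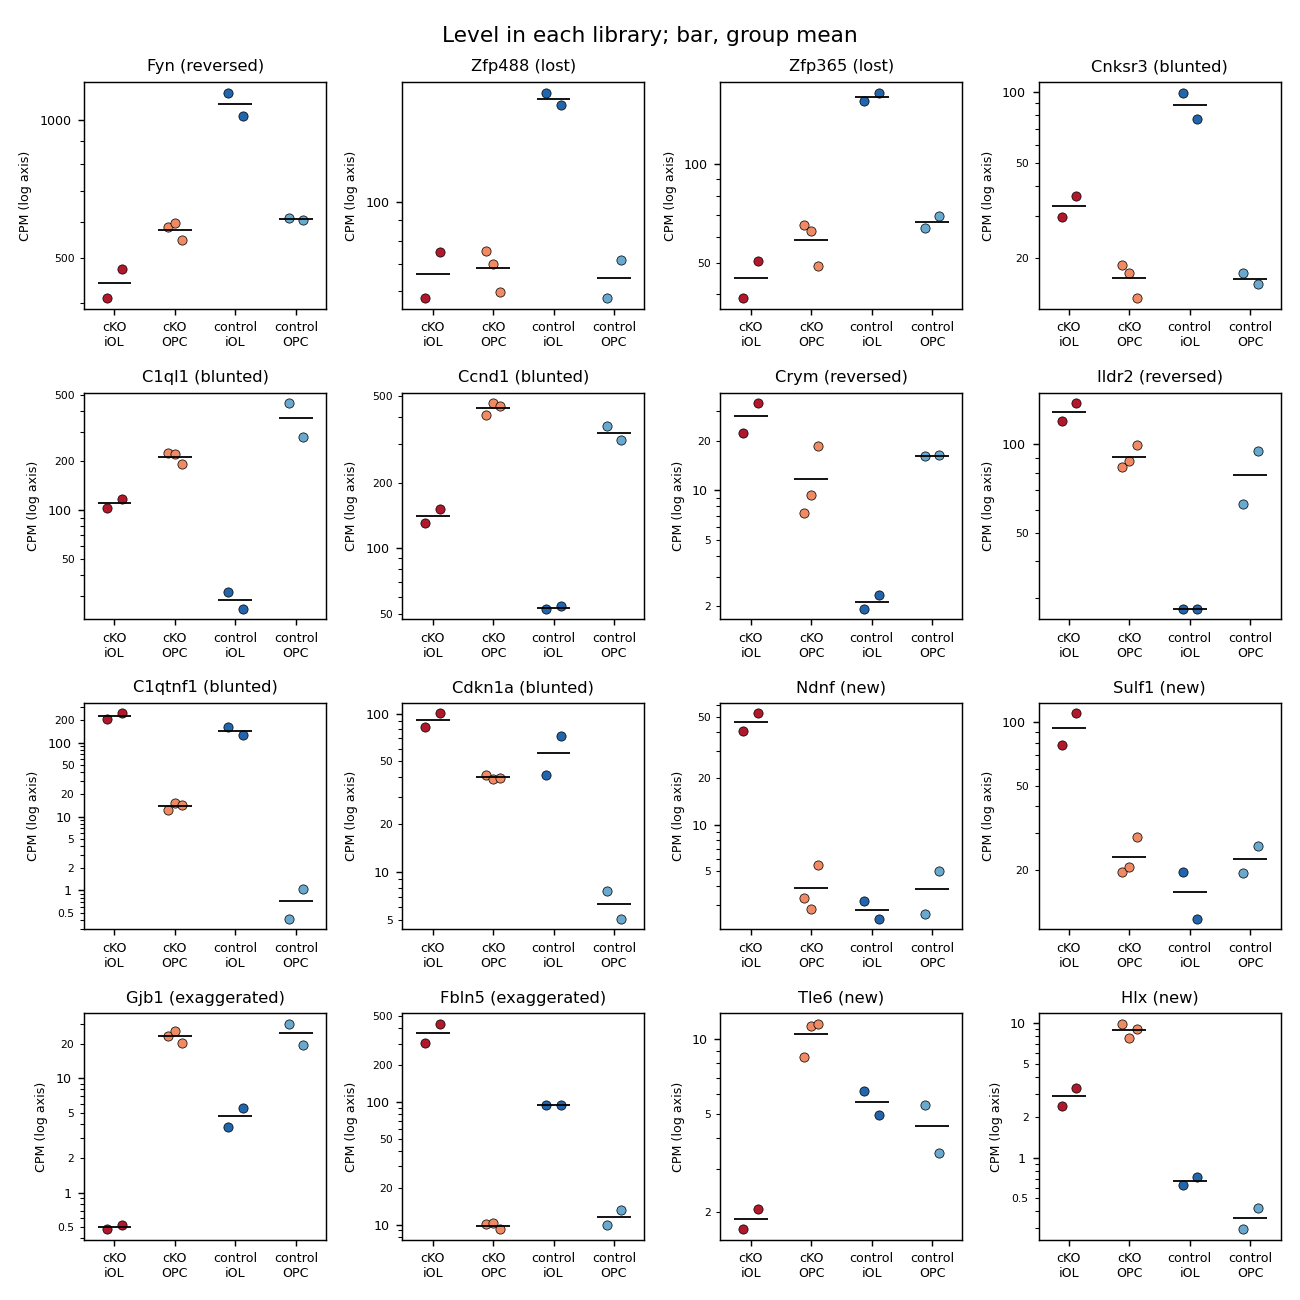
CPM (vertical log axis, scaled separately for each gene) of 16 genes in every library, by group; points are libraries, bars are group means, and the class of the response stands after the gene symbol. Fyn, Zfp488, Zfp365 and Cnksr3 are highest in control iOLs, C1ql1, Ccnd1, Crym and Ildr2 are lowest in control iOLs, and Ndnf and Sulf1 are high in cKO iOLs alone.

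Of 27 myelin structural genes Gjb1 alone passed the test of the difference in the reported edgeR fit, with a lower response. DESeq2 called 4 lower and none higher, and with postnatal day as a term edgeR called 7 lower and 1 higher. Their summed level was 1948 and 2752 CPM in cKO iOLs, 2807, 3680.1 and 1758 CPM in cKO OPCs, 6697 and 6811 CPM in control iOLs and 7962 and 3156 CPM in control OPCs, lowest in the cKO iOLs and in the day 6 cKO OPC library. At an unadjusted p under 0.05, 8 were lower and 2 higher, and 22 of the 27 differences were below 0 with a median of −0.81. The list's median response was −0.88 in cKO and −0.22 in controls, but without OPC control replicate 1 the control value was 0.53 and the median difference −1.51. The median difference was smaller in size, −0.74, in the day 6 libraries alone and −0.57 with postnatal day as a term. Cnp, an early myelin enzyme gene, had 322 and 464 CPM in cKO iOLs, 302, 370.1 and 307 CPM in cKO OPCs, 1432 and 1409 CPM in control iOLs and 815 and 501 CPM in control OPCs. The control iOLs stood above all OPC libraries and the cKO iOLs overlapped their OPCs, with a difference of −0.84 ± 0.34 (edgeR adjusted p = 0.236). Mbp, the myelin basic protein gene, had 345 and 447 CPM in cKO iOLs, 1119, 1424 and 483 CPM in cKO OPCs, 2015 and 1913 CPM in control iOLs and 3467 and 1119.5 CPM in control OPCs. The control OPC replicates lay on either side of the control iOLs, and the difference was −1.13 ± 0.74 (edgeR adjusted p = 0.439). It was −2.16 (adjusted p = 0.119) without OPC control replicate 1 and −0.53 (adjusted p = 0.598) without OPC control replicate 2, and with postnatal day as a term it was −0.96 and passed (adjusted p = 0.0345), all in edgeR. Mog, for a late myelin protein, differed by −0.81 ± 1.11 (edgeR adjusted p = 0.717), with the same OPC control replicate highest, and by −2.33 without that replicate (edgeR adjusted p = 0.2302).

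Gjb1, which encodes connexin 32, the gap junction protein of myelinating glia, went further down in cKO. It had 0.479 and 0.529 CPM in cKO iOLs, 23.7, 25.8 and 20.2 CPM in cKO OPCs, 3.75 and 5.55 CPM in control iOLs and 29.99 and 19.4 CPM in control OPCs. Its OPC levels overlapped between genotypes and the cKO iOLs were lowest, so the response was −5.51 ± 0.34 in cKO and −2.40 ± 0.27 in controls. The difference of −3.10 ± 0.44 (edgeR adjusted p = 0.0158) was the largest below 0 among exaggerated falls. The cKO iOL libraries together held only 19 counts of Gjb1, so the size of this difference is uncertain. In the 9 fits without a library, the edgeR adjusted p of Gjb1 lay between 0.00920 and 0.0985, and the day 6 libraries alone gave a difference of −3.25. Promoter sequence is shown for Gjb1 and, further on, for Fxyd1 and Fgd5, since PRC2 is known to act mostly at promoters rich in CG. These 3 had the largest differences below and above 0 among the 29 of 40 genes named by size that have a window in RefSeq (GRCm38.p6). The 250 bases upstream of the Gjb1 start, at chrX:101376126-101376375 on the plus strand, are given with each CG in capitals, a pair that reads the same on both strands.

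Gjb1: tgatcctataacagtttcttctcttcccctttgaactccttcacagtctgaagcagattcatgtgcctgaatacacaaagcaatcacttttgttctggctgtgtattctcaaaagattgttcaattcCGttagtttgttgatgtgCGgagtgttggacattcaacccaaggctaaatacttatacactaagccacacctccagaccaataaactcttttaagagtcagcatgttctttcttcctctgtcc

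The window of Gjb1 holds 2 CG, a number reached by 97.9% of the promoters of tested genes, whose median is 16. No PRC2 binding or histone mark was analysed here, and a CG count is a description of the sequence.

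Most cholesterol synthesis genes had differences below 0, without a call in the reported edgeR fit. Of 24 cholesterol synthesis genes, which supply the lipid of myelin, none passed in either direction by edgeR. Unadjusted p-values were under 0.05 for 11 lower and no higher responses, 22 differences were below 0, and DESeq2 called 5 lower. The median response was −0.68 in cKO and −0.15 in controls. Of 24 fatty acid and sphingolipid genes none passed by edgeR, with 7 lower and none higher at an unadjusted p under 0.05 and 4 lower by DESeq2. Of 45 actin and microtubule regulators none passed either, with 12 lower and 2 higher at an unadjusted p under 0.05 and 8 lower and 2 higher by DESeq2.

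A further set of rises was smaller in cKO where the cKO OPCs already held more of the RNA than control OPCs. C1qtnf1, a secreted C1q and TNF related protein gene, had 209 and 248 CPM in cKO iOLs, 12.3, 15.2 and 14.2 CPM in cKO OPCs, 161 and 125 CPM in control iOLs and 0.410 and 1.05 CPM in control OPCs. The cKO OPCs lay far above control OPCs, and cKO iOLs above control iOLs by 0.68 ± 0.20 on the log2 scale. The response was 4.04 ± 0.20 in cKO and 7.57 ± 0.31 in controls, and the difference was −3.53 ± 0.37 (edgeR adjusted p = 0.0109). Clcf1, a cytokine of the interleukin 6 family, had 11.0 and 11.4 CPM in cKO iOLs, 4.39, 3.72 and 2.43 CPM in cKO OPCs, 11.7 and 17.0 CPM in control iOLs and 0.351 and 0.684 CPM in control OPCs and a difference of −3.09 ± 0.50 (edgeR adjusted p = 0.0252). Cpm, for the membrane enzyme carboxypeptidase M, had 78.9 and 139 CPM in cKO iOLs, 41.8, 39.4 and 39.8 CPM in cKO OPCs, 119.5 and 105 CPM in control iOLs and 6.97 and 9.69 CPM in control OPCs and differed by −2.31 ± 0.34 (edgeR adjusted p = 0.0181). In both genes the cKO OPCs were above all control OPCs, and the iOL levels lay close together. Crybg1 was higher in cKO at both stages, more so in OPCs, with a difference of −2.95 ± 0.46 (edgeR adjusted p = 0.0213). The control OPC libraries together held only 11 counts of Crybg1 and 19 of Clcf1, so the sizes of these differences are uncertain. Across the fits that each left out 1 library, the edgeR adjusted p of C1qtnf1, Clcf1, Cpm and Crybg1 was between 0.00499 and 0.119, and the day 6 libraries alone gave differences between −2.08 and −3.07, with no call for Clcf1 (edgeR adjusted p = 0.0907), Cpm (edgeR adjusted p = 0.0865) and Crybg1 (edgeR adjusted p = 0.0857).

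The p53 target genes Cdkn1a and Ccng1 belong to the same set. Cdkn1a, which encodes the cell-cycle inhibitor p21, had 82.1 and 100.5 CPM in cKO iOLs, 40.9, 38.7 and 39.3 CPM in cKO OPCs, 41.1 and 72.5 CPM in control iOLs and 7.62 and 5.05 CPM in control OPCs. Control OPCs were lowest, cKO OPCs were near the lower control iOL library, and the difference was −1.96 ± 0.37 (edgeR adjusted p = 0.0368). Ccng1, for cyclin G1, had 187 and 215 CPM in cKO iOLs, 76.7, 86.7 and 87.1 CPM in cKO OPCs, 161 and 220.3 CPM in control iOLs and 33.98 and 40.2 CPM in control OPCs, with overlapping iOLs and a difference of −1.09 ± 0.23 (edgeR adjusted p = 0.0496). In a list of 23 CDK inhibitor and growth arrest genes these 2 passed with a lower response and Gadd45g with a higher one. Cdkn2a, the gene of p16 and p19ARF, had 488 counts in cKO iOLs and 1158 in cKO OPCs, against 2 in control iOLs and 11 in control OPCs. With so few control counts no fold over differentiation is given for controls, and the test of the difference gave an edgeR adjusted p of 0.353. With each library left out in turn, the edgeR adjusted p of Cdkn1a and Ccng1 was between 0.0189 and 0.226, and the day 6 libraries alone gave differences between −1.04 and −2.27, with no call for Cdkn1a (edgeR adjusted p = 0.0861) and Ccng1 (edgeR adjusted p = 0.114).

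Among the 33 rises that were lost, 26 had the larger genotype difference in iOLs and 7 in OPCs. The 4 of largest size with at least 5 CPM in the highest group were Slc24a2, Col9a1, Chml and Atp6v0a4. In all of them cKO OPCs lay above control OPCs, where 34.3% of all genes had no overlap between genotypes in OPCs. The genotype difference in OPCs did not pass for Chml (edgeR adjusted p = 0.0725) or Atp6v0a4 (edgeR adjusted p = 0.220). Col9a1, a collagen IX chain gene, had 55.6 and 74.3 CPM in cKO iOLs, 57.5, 69.6 and 60.1 CPM in cKO OPCs, 92.7 and 76.6 CPM in control iOLs and 15.9 and 18.003 CPM in control OPCs. The cKO OPCs were already at the level of cKO iOLs, and control OPCs were low, with a difference of −2.26 ± 0.24 (edgeR adjusted p = 0.0109). Slc24a2, a sodium, calcium and potassium exchanger gene, had 9.79 and 13.1 CPM in cKO iOLs, 18.3, 22.9 and 11.4 CPM in cKO OPCs, 19.3 and 19.1 CPM in control iOLs and 6.21 and 4.16 CPM in control OPCs and a difference of −2.51 ± 0.44 (edgeR adjusted p = 0.0318). Chml, for a Rab escort protein, differed by −1.996 ± 0.27 (edgeR adjusted p = 0.0156), with cKO minus control at −1.26 ± 0.20 in iOLs and 0.74 ± 0.19 in OPCs on the log2 scale. Atp6v0a4, for a subunit of the proton pump, differed by −1.98 ± 0.40 (edgeR adjusted p = 0.0465). Of 55 extracellular matrix genes, Col9a1 and Col11a1 (−1.30 ± 0.25) passed with a lower response, and Eln and Fbln1 with a higher one. Without 1 library at a time, the edgeR adjusted p of Col9a1, Slc24a2, Chml and Atp6v0a4 lay between 0.00499 and 0.209, and the day 6 libraries alone gave differences between −1.56 and −2.20, with no call for Atp6v0a4 (edgeR adjusted p = 0.102).

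Of 27 precursor genes, 20 fell and 1 rose in cKO and 19 fell and 2 rose in controls, and 3 passed with a higher response in cKO, C1ql1 and Cspg5 among them. Counted at an unadjusted p under 0.05, 9 were higher and 5 lower. The median response was −1.12 in cKO and −1.52 in controls. C1ql1, which OPCs make as a secreted synaptic organiser, had 103 and 117 CPM in cKO iOLs, 223, 220.4 and 190.3 CPM in cKO OPCs, 31.6 and 25.04 CPM in control iOLs and 449 and 279 CPM in control OPCs. The cKO iOLs kept several times the level of control iOLs although cKO OPCs had less than control OPCs, and the difference was 2.74 ± 0.30 (edgeR adjusted p = 0.0109). Cspg5, for the proteoglycan neuroglycan C, had 448 and 463 CPM in cKO iOLs, 1818, 1769 and 1928 CPM in cKO OPCs, 238 and 237 CPM in control iOLs and 2679 and 2198 CPM in control OPCs and a difference of 1.35 ± 0.22 (edgeR adjusted p = 0.0227). The classical precursor markers did not pass. Pdgfra had 821 and 635 CPM in cKO iOLs, 3935, 4290.0 and 3830.3 CPM in cKO OPCs, 597 and 497 CPM in control iOLs and 3297 and 4430.1 CPM in control OPCs, with a difference of 0.36 ± 0.29 (edgeR adjusted p = 0.528), and Cspg4, for the NG2 proteoglycan, differed by 0.47 ± 0.26 (edgeR adjusted p = 0.369). Both cKO iOL libraries were above both control iOL libraries for either gene, where 67.9% of all genes had no overlap between genotypes in iOLs. The genotype difference in iOLs was 0.41 ± 0.21 for Pdgfra (edgeR adjusted p = 0.298) and 0.73 ± 0.20 for Cspg4 (edgeR adjusted p = 0.0452). In the 9 fits without a library, the edgeR adjusted p of C1ql1 and Cspg5 lay between 0.00395 and 0.142, and the day 6 libraries alone gave differences between 1.13 and 2.51.

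The cell-cycle list leaned to a smaller fall in cKO. Of 40 cell cycle and DNA replication genes, 1 passed, Ccnd1, with a higher response, while DESeq2 called 3 higher and edgeR with postnatal day as a term 7 higher, and neither any lower. With unadjusted p under 0.05, 25 were higher and none lower, 38 differences were above 0, and the median was 0.59. The median response was −0.92 in cKO and −1.47 in controls, and the list summed to 2627 and 2442 CPM in cKO iOLs, 3867, 4128 and 4169 CPM in cKO OPCs, 2028 and 1791 CPM in control iOLs and 4146 and 3637 CPM in control OPCs. Ccnd1, which encodes cyclin D1 of the G1 phase, had 131 and 151 CPM in cKO iOLs, 408, 465 and 449.9 CPM in cKO OPCs, 52.8 and 54.1 CPM in control iOLs and 365 and 315 CPM in control OPCs. No groups overlapped, cKO lay above control at both stages, and the gap was wider in iOLs, with a difference of 1.03 ± 0.18 (edgeR adjusted p = 0.0327). Across the fits that each left out 1 library, the edgeR adjusted p of Ccnd1 was between 0.00925 and 0.173, and the day 6 libraries alone gave a difference of 0.89.

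The largest of the 47 blunted falls were of Ntsr2, C1ql1, Rasgrf1 and Mfng. Ntsr2, a neurotensin receptor gene of astrocytes, had 21.1 and 18.03 CPM in cKO iOLs, 37.5, 35.6 and 63.8 CPM in cKO OPCs, 4.03 and 3.33 CPM in control iOLs and 62.1 and 105 CPM in control OPCs and a difference of 3.28 ± 0.46 (edgeR adjusted p = 0.0156). The cKO iOLs were above control iOLs. OPC control replicate 2 had both the highest Ntsr2 level and the highest sum of astrocyte markers, whose part in this result was not tested. Rasgrf1, a Ras exchange factor gene, had 3.51 and 5.23 CPM in cKO iOLs, 81.4, 80.6 and 65.2 CPM in cKO OPCs, 0.511 and 0.611 CPM in control iOLs and 52.0 and 49.4 CPM in control OPCs. It fell steeply in both genotypes, and the difference was 2.37 ± 0.34 (edgeR adjusted p = 0.0167). Mfng, for a fringe enzyme that modifies Notch receptors, differed by 2.33 ± 0.44 (edgeR adjusted p = 0.0380) and was the only 1 of 29 Notch pathway genes to pass, while DESeq2 called 2 higher and 1 lower. The control iOL libraries together held only 13 counts of Mfng and 20 of Rasgrf1, so the sizes of these differences are uncertain. With each library left out in turn, the edgeR adjusted p of Ntsr2, Rasgrf1 and Mfng was between 0.00808 and 0.182, and the day 6 libraries alone gave differences between 2.18 and 3.13, with no call for Mfng (edgeR adjusted p = 0.0843).

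Several secreted signalling genes that fell in controls stayed higher in cKO iOLs. Of 51 Wnt pathway genes 2 passed, both with a higher response. Sfrp2, for a secreted frizzled-related modulator of Wnt, had 5.64 and 4.49 CPM in cKO iOLs, 50.3, 50.4 and 48.0 CPM in cKO OPCs, 0.795 and 0.833 CPM in control iOLs and 42.2 and 36.1 CPM in control OPCs, and its difference was 2.29 ± 0.25 (edgeR adjusted p = 0.0109). The Wnt ligand gene Wnt7b had 48.0 and 51.1 CPM in cKO iOLs, 97.6, 88.1 and 117 CPM in cKO OPCs, 22.3 and 20.6 CPM in control iOLs and 125 and 137 CPM in control OPCs, and its difference was 1.59 ± 0.20 (edgeR adjusted p = 0.0109). In both genes the iOLs were apart while the OPCs of the genotypes were close or in the opposite order. Of 19 IGF pathway genes 1 passed, Igfbp4, a binding protein of IGF, with 28.1 and 31.6 CPM in cKO iOLs, 116, 114 and 114 CPM in cKO OPCs, 4.26 and 6.83 CPM in control iOLs and 106 and 66.0 CPM in control OPCs and a difference of 2.01 ± 0.33 (edgeR adjusted p = 0.0256). The IGF list as a whole did not lean that way, with 5 higher and 5 lower members at an unadjusted p under 0.05. DESeq2 and edgeR with postnatal day as a term each called 2 of its members higher and 4 lower. The elastic fibre genes Eln and Fbln1 differed by 1.23 ± 0.17 (edgeR adjusted p = 0.0156) and 1.75 ± 0.33 (edgeR adjusted p = 0.0385). Slit1, a repulsive guidance ligand, differed by 1.53 ± 0.27 (edgeR adjusted p = 0.0316). Without 1 library at a time, the edgeR adjusted p of Sfrp2, Wnt7b, Igfbp4, Eln, Fbln1 and Slit1 lay between 0.00499 and 0.181, and the day 6 libraries alone gave differences between 1.23 and 2.22.

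Of 65 measured developmental transcription factors out of 125 written, 2 passed with a higher response, 1 with a lower one and 62 did not pass. Gsx1, a homeobox gene of the embryonic ventral forebrain, had 15.6 and 8.88 CPM in cKO iOLs, 33.4, 21.5 and 25.03 CPM in cKO OPCs, 2.56 and 3.11 CPM in control iOLs and 28.6 and 22.4 CPM in control OPCs and a difference of 2.04 ± 0.42 (edgeR adjusted p = 0.0468). Irx1, an Iroquois homeobox gene, had 22.4 and 21.3 CPM in cKO iOLs, 51.1, 38.6 and 47.2 CPM in cKO OPCs, 13.3 and 12.9 CPM in control iOLs and 70.9 and 58.9 CPM in control OPCs and differed by 1.24 ± 0.22 (edgeR adjusted p = 0.0320). Both fell in controls to low iOL levels and less so in cKO. Hlx, a homeobox gene of visceral mesenchyme, had 2.45 and 3.33 CPM in cKO iOLs, 9.93, 7.75 and 9.08 CPM in cKO OPCs, 0.625 and 0.722 CPM in control iOLs and 0.293 and 0.421 CPM in control OPCs. It was higher in cKO at both stages, most in OPCs, and fell over differentiation in cKO alone, with a difference of −2.52 ± 0.47 (edgeR adjusted p = 0.0369). Its counts summed to 24 in control iOLs and 13 in control OPCs, so the size of its difference is uncertain. The table keeps low genes only where enough libraries reach 10 counts, so a gene as low in controls as Hlx is present through its cKO libraries. None of the 10 measured Hox genes of 39 passed by edgeR, at an unadjusted p under 0.05 or, for the 5 with a DESeq2 adjusted p, by DESeq2. In the 9 fits without a library, the edgeR adjusted p of Gsx1 and Irx1 lay between 0.0112 and 0.201, and the day 6 libraries alone gave differences between 1.05 and 1.95, with no call for Gsx1 (edgeR adjusted p = 0.0856). Across the fits that each left out 1 library, the edgeR adjusted p of Hlx was between 0.0192 and 0.166, and the day 6 libraries alone gave a difference of −2.32, which was no call (edgeR adjusted p = 0.0953).

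Among the 33 falls that were lost, the named genes stayed nearer to the OPC level in cKO iOLs than in control iOLs. Fgd5, an exchange factor gene for Cdc42, had 6.28 and 8.62 CPM in cKO iOLs, 11.9, 10.4 and 9.91 CPM in cKO OPCs, 0.738 and 0.333 CPM in control iOLs and 9.02 and 10.002 CPM in control OPCs. Only the control iOLs were low, and the response was −0.53 ± 0.24 in cKO and −4.14 ± 0.34 in controls, a difference of 3.61 ± 0.41 (edgeR adjusted p = 0.0109). Olfm3, for a secreted olfactomedin, had 4.26 and 5.50 CPM in cKO iOLs, 8.08, 9.21 and 5.47 CPM in cKO OPCs, 0.398 and 0.666 CPM in control iOLs and 6.91 and 8.32 CPM in control OPCs and differed by 3.19 ± 0.47 (edgeR adjusted p = 0.0175). The control iOL libraries together held only 19 counts of Fgd5 and 19 of Olfm3, so the sizes of these differences are uncertain. Islr2, for an immunoglobulin and leucine-rich repeat membrane protein, had 17.0 and 15.3 CPM in cKO iOLs, 12.5, 13.9 and 11.8 CPM in cKO OPCs, 1.31 and 1.11 CPM in control iOLs and 10.9 and 3.53 CPM in control OPCs. Its difference was 2.91 ± 0.59 (edgeR adjusted p = 0.0467), but 1.89 without OPC control replicate 1, the higher of the control OPC libraries. Ppp1r1b, which encodes DARPP-32, a phosphatase inhibitor, differed by 2.57 ± 0.44 (edgeR adjusted p = 0.0288), and the potassium channel gene Kcnk10 by 1.37 ± 0.19 (edgeR adjusted p = 0.0156). With each library left out in turn, the edgeR adjusted p of Fgd5, Olfm3, Islr2, Ppp1r1b and Kcnk10 was between 0.00499 and 0.192, and the day 6 libraries alone gave differences between 1.34 and 3.80. The Fgd5 window, at chr6:91978715-91978964 on the plus strand of GRCm38.p6, is shown as the CG-rich case, with CG in capitals. This window runs past base 91978827, where the gene's span begins, and so belongs to a start further in.

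Fgd5: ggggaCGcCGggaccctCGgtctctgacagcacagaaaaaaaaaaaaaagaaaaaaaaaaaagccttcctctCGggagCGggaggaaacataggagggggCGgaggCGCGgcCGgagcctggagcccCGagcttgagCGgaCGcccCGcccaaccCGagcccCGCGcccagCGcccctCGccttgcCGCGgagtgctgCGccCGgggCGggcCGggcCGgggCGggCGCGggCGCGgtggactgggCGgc

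These 250 bases hold 31 CG, a number reached by 9.8% of the promoters of tested genes.

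Of the 28 reversed responses, 13 were falls of controls that became rises in cKO. Crym, whose product mu-crystallin binds thyroid hormone in the cell, had the largest difference of all named genes. It had 22.3 and 33.7 CPM in cKO iOLs, 7.32, 9.37 and 18.6 CPM in cKO OPCs, 1.93 and 2.33 CPM in control iOLs and 16.1 and 16.3 CPM in control OPCs. The control iOLs were lowest, the cKO iOLs highest, and the OPCs of the genotypes overlapped. The response was 1.25 ± 0.34 in cKO and −2.92 ± 0.44 in controls, and the difference was 4.17 ± 0.56 (edgeR adjusted p = 0.0152). Crym was the only 1 of 20 thyroid hormone response genes to pass, while edgeR with postnatal day as a term called 5 higher and 1 lower. Olfml3, for a secreted olfactomedin-like protein, had 15.8 and 17.5 CPM in cKO iOLs, 5.53, 5.49 and 5.73 CPM in cKO OPCs, 2.56 and 2.83 CPM in control iOLs and 6.03 and 5.32 CPM in control OPCs and differed by 2.65 ± 0.25 (edgeR adjusted p = 0.0109). Ildr2 had 119 and 138 CPM in cKO iOLs, 83.8, 87.4 and 99.1 CPM in cKO OPCs, 27.7 and 27.6 CPM in control iOLs and 62.6 and 94.8 CPM in control OPCs and differed by 2.02 ± 0.25 (edgeR adjusted p = 0.0109). The transcription factor gene Ebf1 differed by 1.97 ± 0.38 (edgeR adjusted p = 0.0385), with iOLs of cKO above those of controls by 2.87 ± 0.29 on the log2 scale. Without 1 library at a time, the edgeR adjusted p of Crym, Olfml3, Ildr2 and Ebf1 lay between 0.00499 and 0.179, and the day 6 libraries alone gave differences between 2.15 and 3.52.

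Gadd45g, a stress and growth arrest gene, took the same turn from the other side. It had 65.7 and 75.6 CPM in cKO iOLs, 45.2, 39.7 and 61.8 CPM in cKO OPCs, 35.0 and 41.4 CPM in control iOLs and 90.6 and 107 CPM in control OPCs, so cKO was the higher genotype in iOLs and the lower in OPCs. Its difference was 1.90 ± 0.28 (edgeR adjusted p = 0.0175). In the 9 fits without a library, the edgeR adjusted p of Gadd45g lay between 0.00808 and 0.107, and the day 6 libraries alone gave a difference of 1.68. Slit2 and Nrp2, a guidance ligand and a semaphorin receptor, also turned, with differences of 1.13 ± 0.20 (edgeR adjusted p = 0.0341) and 0.87 ± 0.17 (edgeR adjusted p = 0.0438). Together with Slit1, Efnb3 (0.80 ± 0.16) and Ephb2 they were the 5 of 55 axon guidance genes with a higher response, and Ephb1 was the only 1 with a lower response. The list had 12 higher and 12 lower members at an unadjusted p under 0.05.

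The 15 rises that became falls in cKO included Fyn, described above, and the 4 of largest size. Ppp1r16b, for a regulatory subunit of protein phosphatase 1, had 45.9 and 74.2 CPM in cKO iOLs, 154, 169 and 123 CPM in cKO OPCs, 285 and 271 CPM in control iOLs and 138 and 126 CPM in control OPCs. The response was −1.31 ± 0.21 in cKO and 1.07 ± 0.22 in controls, and the difference was −2.38 ± 0.30 (edgeR adjusted p = 0.0121). Ptpre, a receptor tyrosine phosphatase gene, had 62.5 and 88.0 CPM in cKO iOLs, 201, 199 and 136 CPM in cKO OPCs, 225 and 239.8 CPM in control iOLs and 138 and 133 CPM in control OPCs and differed by −2.03 ± 0.29 (edgeR adjusted p = 0.0167). Bche, for butyrylcholinesterase, had 11.97 and 14.8 CPM in cKO iOLs, 26.1, 26.3 and 17.2 CPM in cKO OPCs, 51.7 and 45.8 CPM in control iOLs and 19.98 and 21.8 CPM in control OPCs and differed by −2.02 ± 0.30 (edgeR adjusted p = 0.0175). In these 3 genes control iOLs were the highest group and cKO iOLs the lowest. Dock9, an exchange factor gene for Cdc42, had the same order of iOLs and differed by −1.76 ± 0.34 (edgeR adjusted p = 0.0424). The median length of the 15 genes was 148 kb. Across the fits that each left out 1 library, the edgeR adjusted p of Ppp1r16b, Ptpre, Bche and Dock9 was between 0.00808 and 0.183, and the day 6 libraries alone gave differences between −1.21 and −2.17, with no call for Dock9 (edgeR adjusted p = 0.0869).

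Exaggerated rises were few and all had their larger genotype difference in iOLs. Fbln5, a fibulin gene of elastic fibres, had 302 and 435 CPM in cKO iOLs, 10.1, 10.2 and 9.13 CPM in cKO OPCs, 94.1 and 94.5 CPM in control iOLs and 10.02 and 13.3 CPM in control OPCs. It rose in both genotypes, 5.23 ± 0.18 in cKO and 3.01 ± 0.20 in controls, and the difference was 2.21 ± 0.26 (edgeR adjusted p = 0.0109). Cebpd, a transcription factor gene induced by STAT3, had 58.5 and 85.9 CPM in cKO iOLs, 10.1, 7.86 and 12.03 CPM in cKO OPCs, 25.3 and 29.9 CPM in control iOLs and 13.6 and 14.4 CPM in control OPCs and differed by 1.87 ± 0.31 (edgeR adjusted p = 0.0285). Socs2, a feedback inhibitor of cytokine receptors, had 77.4 and 83.1 CPM in cKO iOLs, 11.7, 10.8 and 10.5 CPM in cKO OPCs, 20.7 and 24.5 CPM in control iOLs and 6.03 and 8.63 CPM in control OPCs and differed by 1.24 ± 0.24 (edgeR adjusted p = 0.0428). In these 3 genes the cKO iOLs were the highest libraries. Matn2 and Asb4 differed by 1.6 ± 0.22 (edgeR adjusted p = 0.0156) and 1.61 ± 0.25 (edgeR adjusted p = 0.0221). Of 23 cytokine and STAT3 response genes, Cebpd and Socs2 passed with a higher response and Clcf1 with a lower one, beside which the summed astrocyte markers were higher in cKO iOLs than in control iOLs, and their part in this was not tested. With each library left out in turn, the edgeR adjusted p of Fbln5, Cebpd, Socs2, Matn2 and Asb4 was between 0.00854 and 0.188, and the day 6 libraries alone gave differences between 1.36 and 2.51, with no call for Cebpd (edgeR adjusted p = 0.0821) and Matn2 (edgeR adjusted p = 0.0610).

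Exaggerated falls beside that of Gjb1 were led by Lrp11, Arsb and Dpp10. Arsb, for the lysosomal enzyme arylsulfatase B, had 78.7 and 114 CPM in cKO iOLs, 466, 459 and 432 CPM in cKO OPCs, 273 and 264 CPM in control iOLs and 359.7 and 507 CPM in control OPCs. The OPCs overlapped, the cKO iOLs were lowest, and the difference was −1.54 ± 0.28 (edgeR adjusted p = 0.0359). Lrp11 had 70.0 and 79.4 CPM in cKO iOLs, 317, 339.8 and 281 CPM in cKO OPCs, 86.7 and 90.6 CPM in control iOLs and 116 and 135 CPM in control OPCs, with cKO OPCs highest, and differed by −1.56 ± 0.19 (edgeR adjusted p = 0.0109). Dpp10, an auxiliary subunit gene of potassium channels, differed by −1.43 ± 0.25 (edgeR adjusted p = 0.0305). Without 1 library at a time, the edgeR adjusted p of Arsb, Lrp11 and Dpp10 lay between 0.00604 and 0.156, and the day 6 libraries alone gave differences between −1.19 and −1.30, with no call for Arsb (edgeR adjusted p = 0.0802).

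New rises were genes whose rise over differentiation passed the test in cKO cultures while the response of controls did not pass. Ndnf, for a secreted neurotrophic factor, had 40.3 and 52.8 CPM in cKO iOLs, 3.36, 2.85 and 5.52 CPM in cKO OPCs, 3.18 and 2.44 CPM in control iOLs and 2.64 and 5.001 CPM in control OPCs. Only the cKO iOLs were high, and the response was 3.57 ± 0.32 in cKO and −0.45 ± 0.39 in controls, a difference of 4.02 ± 0.50 (edgeR adjusted p = 0.0109). Fxyd1, for phospholemman, a regulator of the sodium pump, had 46.8 and 61.8 CPM in cKO iOLs, 4.72, 4.25 and 14.1 CPM in cKO OPCs, 5.91 and 9.44 CPM in control iOLs and 11.0 and 16.1 CPM in control OPCs and differed by 3.63 ± 0.70 (edgeR adjusted p = 0.0385). Its relative Fxyd7 had 100.0 and 152 CPM in cKO iOLs, 23.7, 20.4 and 17.4 CPM in cKO OPCs, 25.05 and 21.5 CPM in control iOLs and 30.9 and 14.4 CPM in control OPCs and differed by 2.58 ± 0.44 (edgeR adjusted p = 0.02997). Sulf1, for an enzyme that removes sulfate from heparan sulfate, had 78.5 and 110.4 CPM in cKO iOLs, 19.6, 20.7 and 28.5 CPM in cKO OPCs, 19.6 and 11.7 CPM in control iOLs and 19.3 and 25.8 CPM in control OPCs and differed by 2.57 ± 0.39 (edgeR adjusted p = 0.0208). In all 4 genes the cKO iOLs were clear of every other library. In the 9 fits without a library, the edgeR adjusted p of Ndnf, Fxyd1, Fxyd7 and Sulf1 lay between 0.00604 and 0.178, and the day 6 libraries alone gave differences between 2.17 and 3.91. The Fxyd1 window, at chr7:31054854-31055103 on the minus strand of GRCm38.p6, is shown beside that of Fgd5 as a case with few CG, in capitals. It is the first window listed for the gene and lies inside the gene's span, chr7:31051678-31055873. The sequence is therefore not that upstream of the outermost start.

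Fxyd1: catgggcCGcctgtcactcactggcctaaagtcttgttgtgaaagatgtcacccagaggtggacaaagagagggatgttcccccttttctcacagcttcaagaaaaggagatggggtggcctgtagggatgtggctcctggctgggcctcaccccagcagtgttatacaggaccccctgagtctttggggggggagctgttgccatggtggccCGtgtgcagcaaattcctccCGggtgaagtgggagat

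It holds 3 CG, a number reached by 95.7% of the promoters of tested genes.

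Of the axon guidance genes Ephb2, an ephrin receptor, had 223 and 246 CPM in cKO iOLs, 115, 111 and 127 CPM in cKO OPCs, 114 and 116 CPM in control iOLs and 107 and 131 CPM in control OPCs and differed by 1.04 ± 0.18 (edgeR adjusted p = 0.0298). The potassium channel gene Kcna6 and Smad1, a mediator of BMP signals, differed by 1.07 ± 0.17 (edgeR adjusted p = 0.0213) and 0.76 ± 0.16 (edgeR adjusted p = 0.0494), and Smad1 was the only 1 of 44 BMP and TGF-beta pathway genes to pass, while edgeR with postnatal day as a term called 6 higher and 1 lower. F3, which encodes tissue factor and is high in astrocytes, had 118 and 105 CPM in cKO iOLs, 43.8, 45.1 and 51.1 CPM in cKO OPCs, 55.0 and 59.7 CPM in control iOLs and 46.5 and 64.5 CPM in control OPCs and differed by 1.20 ± 0.22 (edgeR adjusted p = 0.0362). It was the only 1 of 26 astrocyte markers to pass in the reported edgeR fit. With postnatal day as a term edgeR called 14 higher and 1 lower, on day 6 alone 6 higher and none lower, and DESeq2 called 4 higher and 1 lower. At an unadjusted p under 0.05, 8 of them were higher and 1 lower, 25 differences were above 0, and their median of 0.88 was 1.36 without OPC control replicate 1. The median was 0.70 in the day 6 libraries alone and 0.74 with postnatal day as a term. Across the fits that each left out 1 library, the edgeR adjusted p of Ephb2, Kcna6, Smad1 and F3 was between 0.00904 and 0.203, and the day 6 libraries alone gave differences between 0.94 and 1.29.

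New falls came about in both ways, from higher levels in cKO OPCs and from lower levels in cKO iOLs. Adamts18, a secreted metalloprotease gene, had 2.08 and 1.90 CPM in cKO iOLs, 22.0, 26.7 and 18.3 CPM in cKO OPCs, 2.61 and 2.66 CPM in control iOLs and 3.46 and 4.58 CPM in control OPCs. Only the cKO OPCs were high, and the difference was −2.87 ± 0.34 (edgeR adjusted p = 0.0109). Tll2, for a tolloid-like protease, had 1.92 and 2.06 CPM in cKO iOLs, 7.54, 7.92 and 6.61 CPM in cKO OPCs, 0.795 and 0.555 CPM in control iOLs and 0.351 and 0.474 CPM in control OPCs and differed by −2.57 ± 0.45 (edgeR adjusted p = 0.0306), with cKO above control at both stages. Its counts summed to 24 in control iOLs and 15 in control OPCs, so the size of the difference is uncertain. Tle6, a Groucho-related corepressor gene, had 1.70 and 2.06 CPM in cKO iOLs, 8.52, 11.4 and 11.6 CPM in cKO OPCs, 6.19 and 4.94 CPM in control iOLs and 5.45 and 3.47 CPM in control OPCs, with cKO OPCs above and cKO iOLs below the controls, and differed by −2.79 ± 0.40 (edgeR adjusted p = 0.0160). Tle2 had the same order, with 18.7 and 17.9 CPM in cKO iOLs, 72.1, 65.6 and 63.8 CPM in cKO OPCs, 41.9 and 47.4 CPM in control iOLs and 38.1 and 34.7 CPM in control OPCs and a difference of −2.17 ± 0.18 (edgeR adjusted p = 0.00644). Gad2, a GABA synthesis enzyme gene, had 10.3 and 11.8 CPM in cKO iOLs, 25.9, 24.4 and 19.4 CPM in cKO OPCs, 5.40 and 5.66 CPM in control iOLs and 4.10 and 3.84 CPM in control OPCs and differed by −1.55 ± 0.27 (edgeR adjusted p = 0.02997). It was the only 1 of 31 neuron markers to pass in the reported edgeR fit, while DESeq2 called 2 higher and 5 lower and edgeR with postnatal day as a term called 3 higher and 2 lower. Ephb1, an ephrin receptor gene, had 65.1 and 66.7 CPM in cKO iOLs, 155, 159.6 and 159 CPM in cKO OPCs, 85.0 and 77.6 CPM in control iOLs and 103 and 93.0 CPM in control OPCs and differed by −0.99 ± 0.15 (edgeR adjusted p = 0.0175). With each library left out in turn, the edgeR adjusted p of Adamts18, Tll2, Tle6, Gad2 and Ephb1 was between 0.00636 and 0.167, and the day 6 libraries alone gave differences between −1.08 and −3.29, with no call for Tll2 (edgeR adjusted p = 0.0925) and Gad2 (edgeR adjusted p = 0.0591).

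The remaining lists gave few calls or none. None of the 13 measured PRC2 subunit genes passed by edgeR, with 1 higher and 1 lower at an unadjusted p under 0.05 and 1 higher by DESeq2. None of 19 PRC1 subunit genes passed, with 2 higher and 2 lower at an unadjusted p under 0.05 and 1 lower by DESeq2. Of 25 immediate early genes 19 fell in cKO and 21 in controls, with a median response of −2.46 in cKO and −2.68 in controls. None of the 25 passed, with 6 higher and none lower at an unadjusted p under 0.05 and 2 higher and none lower by DESeq2. Of 52 ion channel genes Kcna6 and Kcnk10 passed with a higher response, with 6 higher and 9 lower at an unadjusted p under 0.05 and 3 higher and 3 lower by DESeq2. None of 23 stress genes passed, with none higher and 2 lower at an unadjusted p under 0.05 and none by DESeq2. Of the marker lists of other cells none of the microglial, endothelial, pericyte, Schwann, ependymal or red blood cell genes passed by edgeR, and at an unadjusted p under 0.05 these lists had 7 higher and 2 lower members in all. DESeq2 called 1 higher microglial, pericyte, Schwann and ependymal gene each and 1 lower endothelial gene.

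**Figure D5:**
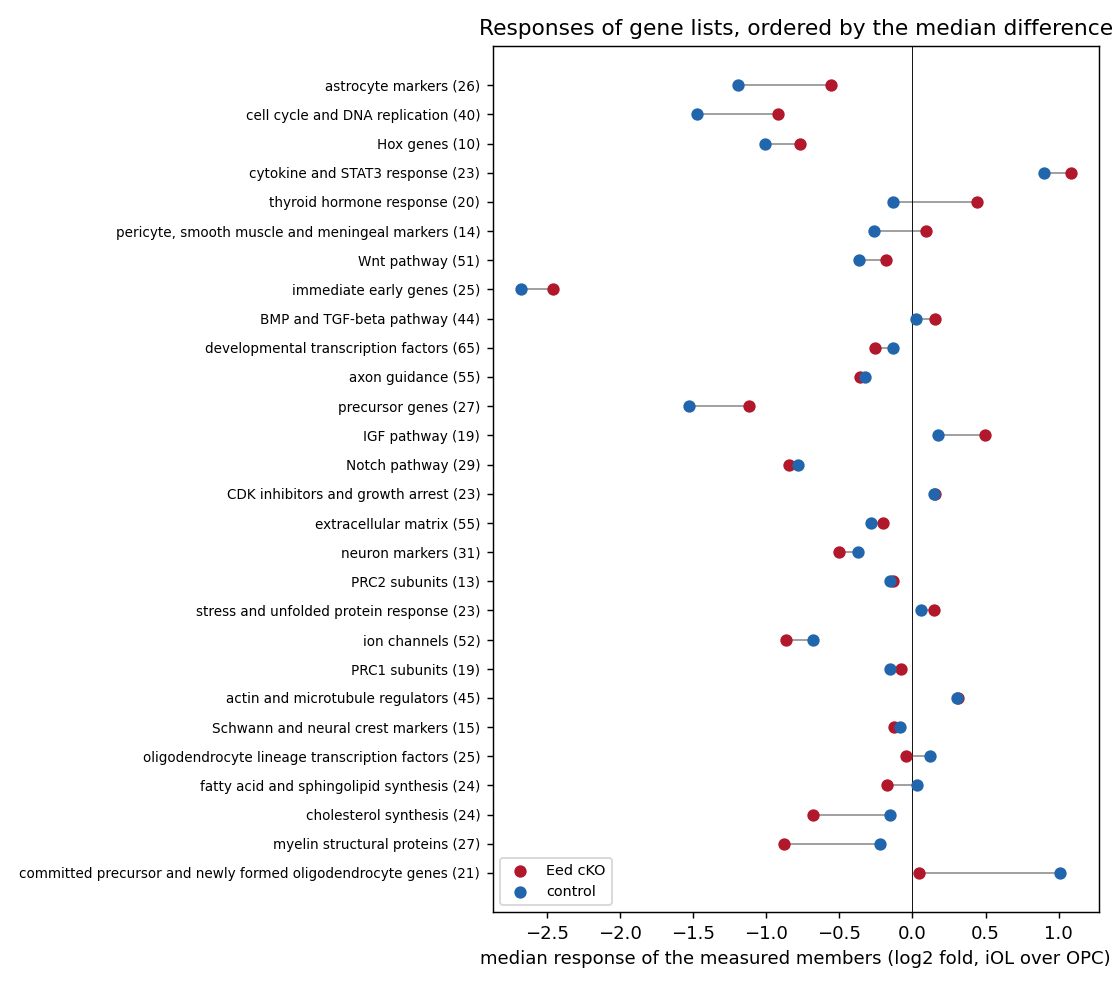
Median response of the measured members of each gene list with at least 10 of them (horizontal axis, log2 fold of iOL over OPC) in cKO and in controls; the number of measured members stands in parentheses. Lists run down the page by the median difference between the responses, with astrocyte and cell-cycle genes, whose median response was less negative in cKO, at the top and committed precursor genes, at 0.05 in cKO and 1.01 in controls, at the bottom.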

How the data were processed

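The deposited table holds raw counts of reads per gene, made by the authors from reads aligned to mm10. Cutadapt 1.14, STAR 2.6.0 and featureCounts of Subread 1.6.2 are named in the submitters' processing notes. Per the labels' protocols, a stranded polyA kit was used above a set amount of RNA and an amplifying kit below it, and the kit of each library is not stated, so antisense genes and near-identical copies are uncertain. A repeated header line was dropped. All 13549 genes have at least 1 count in every library and none was removed by edgeR's filter at a minimum count of 10. The chromatin samples were not analysed here.

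Counts were fitted in R 4.3.3 with edgeR 4.0.16 (quasi-likelihood test, TMM factors, 4 group means, 5 residual degrees of freedom, biological coefficient of variation 16.3%), and Benjamini-Hochberg adjustment ran over all genes. Values after ± are standard errors, obtained by dividing the log2 value by the root of the test's F. CPM are scaled by TMM factors. In simulations that altered 200 of the 13549 genes, the fit found 19.4% of 2-fold and 81.8% of 4-fold differences between the responses, so most 2-fold differences would be missed. Of its calls there, 3.94% were false. The simulated libraries were independent and held no effect of postnatal day, of gene length or of a library standing apart. The false share therefore does not describe the reported calls. Alternatives were RLE size factors, other filters, a replicate block, postnatal day as a term or day 6 alone, left-out libraries, an offset for gene length and DESeq2 1.42.0.

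The members, the 32 gene lists and the rule for named genes were chosen with earlier results of these data known. Named are the 4 largest differences of each class and direction with at least 5 CPM in the highest group and 10 counts summed in each group, up to 3 passing members of each list by smallest p, and Eed, Mbp, Cnp, Mog, Myrf, Pdgfra, Cspg4 and Cdkn2a. Other genes in the text, such as Tle2, Slit2, Nrp2, Efnb3, Col11a1, Enpp6 and Gfap, were added after their values were seen. Some genes the rule would name are not reported here, and list counts include them. Lists are described by counts and medians, with no set test. Promoters are RefSeq windows, present for 10589 of the tested genes, too few for a comparison of classes. The first window listed for a gene was used, which need not lie at its outermost start. Depth limits precision, and the p-values do not cover differences in culture or dissection that replicates share.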

Additional observations from a re-analysis of the deposited data

Results flagged for a closer look

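Results are listed here because the response to differentiation differed between Eed cKO and control cultures by the test of the difference itself, edgeR's interaction contrast at an adjusted p under 0.05. The response was higher in cKO for 128 genes and lower for 120. Values below are log2 differences, cKO response minus control response, over the 9 libraries.

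Where the fall of controls was lost in cKO the difference was 3.61 for Fgd5, 3.19 for Olfm3, 2.91 for Islr2, 2.57 for Ppp1r1b and 1.37 for Kcnk10. Where the rise was lost it was −2.51 for Slc24a2, −2.26 for Col9a1, −1.996 for Chml, −1.98 for Atp6v0a4, −1.67 for Zfp365 and −1.53 for Zfp488. Among blunted falls it was 3.28 for Ntsr2, 2.74 for C1ql1, 2.37 for Rasgrf1, 2.33 for Mfng, 2.29 for Sfrp2, 2.04 for Gsx1, 2.01 for Igfbp4, 1.75 for Fbln1, 1.59 for Wnt7b, 1.53 for Slit1, 1.35 for Cspg5, 1.24 for Irx1, 1.23 for Eln and 1.03 for Ccnd1. Among blunted rises it was −3.53 for C1qtnf1, −3.09 for Clcf1, −2.95 for Crybg1, −2.31 for Cpm, −1.96 for Cdkn1a, −1.43 for Cnksr3 and −1.09 for Ccng1.

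Where the response turned from a fall into a rise the difference was 4.17 for Crym, 2.65 for Olfml3, 2.02 for Ildr2, 1.97 for Ebf1 and 1.90 for Gadd45g, and where it turned from a rise into a fall it was −2.38 for Ppp1r16b, −2.03 for Ptpre, −2.02 for Bche, −1.76 for Dock9 and −1.22 for Fyn. For exaggerated rises the values were 2.21 for Fbln5, 1.87 for Cebpd, 1.61 for Asb4, 1.6 for Matn2 and 1.24 for Socs2, and for exaggerated falls −3.10 for Gjb1, −1.56 for Lrp11, −1.54 for Arsb and −1.43 for Dpp10. New rises in cKO had 4.02 for Ndnf, 3.63 for Fxyd1, 2.58 for Fxyd7, 2.57 for Sulf1, 1.20 for F3, 1.07 for Kcna6, 1.04 for Ephb2 and 0.76 for Smad1. New falls in cKO had −2.87 for Adamts18, −2.79 for Tle6, −2.57 for Tll2, −2.52 for Hlx, −1.55 for Gad2 and −0.99 for Ephb1.

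No group holds 4 or more libraries, so single libraries were not tested for standing apart within a group.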

How the results depend on the processing

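In the counts that follow the order is higher, lower, lost, blunted, reversed, exaggerated and new. As reported they were 128, 120, 66, 77, 28, 21 and 56. With DESeq2 they were 364, 459, 288, 234, 51, 72 and 172, with postnatal day as a term 676, 526, 422, 415, 59, 91 and 203, and at an adjusted p under 0.10 they were 329, 339, 182, 217, 88, 61 and 120. The day 6 libraries alone gave 274 higher, 158 blunted, 53 reversed and 46 exaggerated, with the other counts within 1.5 times, and sorting by size gave 45 blunted, 3 reversed and 9 exaggerated. RLE size factors, no filter, a filter of at least 1 CPM in 4 libraries and, chosen after seeing the data, an offset for gene length kept every count within 1.5 times. Leaving out 1 library at a time gave 0 to 1118 higher, 2 to 1038 lower, 0 to 890 lost, 0 to 730 blunted, 0 to 161 reversed, 0 to 127 exaggerated and 1 to 309 new, with the low ends from the iOL libraries and the high ends from OPC control replicate 2 or, for exaggerated and new, from OPC cKO replicate 3. With the replicate number as a block the counts were 479, 570, 354, 219, 137, 112 and 227. The numbers are not stated to pair samples, and the deviations of same-numbered libraries correlated at 0.31 and −0.35 between the OPC groups, 0.24 between the iOL groups and −0.08 to 0.04 across stages, so the block was not used. The OPC deviations followed the labelled day, and day 7 holds OPCs alone. The causes were not tested. Of the 73 named genes, only Eed changed sign, and it had not passed. It was at −0.13 on day 6 alone, −0.13 without OPC control replicate 1, −0.05 without iOL control replicate 1 and −0.08 without iOL cKO replicate 1. With 2 libraries in 3 of the groups, a left-out library leaves a single one that is assumed to vary like the other groups, and small differences in genes of few counts were not detectable at this depth.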
